A study of Rattus norvegicus with 6 samples.

Results

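The antigen presentation genes described here were 10 genes of the machinery that loads peptides onto major histocompatibility complex (MHC) molecules, measured in the rat hippocampus after removal of the testes. They were chosen by name as Cd74, RT1-Da, RT1-Ba, RT1-Bb, RT1-Db1, B2m, Tap1, Tap2, Psmb8 and Psmb9. All non-control probes whose accession carries one of these symbols were taken, which gave 12 of the 30367 probes on the array, for 10 of 15154 named genes. RT1-Bb and RT1-Db1 had 2 probes each and the other genes 1. The animals were male Wistar rats aged 2 months at surgery, which was either orchidectomy or a sham operation, and tissue was taken 2 weeks later. There were 3 biological replicates per group, each on its own 1-colour Agilent array in the Cy3 channel. The sham rats kept their testes, and both groups went through surgery and the same anaesthesia before the hippocampus was collected. Each value is a log2 intensity minus that array's 75th percentile, so levels of different probes cannot be set against each other, and differences are orchidectomized minus sham.

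MHC class II molecules present peptides from engulfed proteins to CD4+ T cells, and class I molecules present peptides from proteins made in the cell to CD8+ T cells. Class II molecules are pairs of an alpha and a beta chain that are assembled on the invariant chain, the product of Cd74. Class I molecules are heavy chains paired with beta-2-microglobulin, filled with peptides that the immunoproteasome cuts and the TAP transporter carries into the endoplasmic reticulum. In the healthy brain class II is largely kept to border macrophages, scattered dendritic cells and a few microglia, and neurons carry little class I. Interferon-gamma raises the genes of both routes.

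The genes share a place in the genome and, in part, their promoter letters. In the RefSeq table of the GRCr8 assembly 8 of the 10 members lie on chromosome 20, in a run of 10 protein-coding genes from RT1-Da to Psmb9 whose other members are RT1-Db2 and RT1-DOb. Cd74 lies on chromosome 18 and B2m on chromosome 3, both apart from this run. The promoters of the 4 class II chain genes are shown because they share a motif. As described below, RT1-Ba was not well above background. The probes of the other class II chain genes shared their highest, second and lowest arrays, except the second RT1-Bb probe. Each line gives the 160 bases before the annotated start, 5′ to 3′ on the gene's strand, from RefSeq on GRCr8. Capitals mark matches to CCTAGNNAC (the start of the X box, bound by RFX factors) and TGATTGG (the Y box, bound by NF-Y).
RT1-Da, chr20:4515255-4515414, plus strand: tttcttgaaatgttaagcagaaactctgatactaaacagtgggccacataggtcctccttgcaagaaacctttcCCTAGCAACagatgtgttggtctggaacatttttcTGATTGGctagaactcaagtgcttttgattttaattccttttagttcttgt
RT1-Db1, chr20:4560163-4560322, minus strand: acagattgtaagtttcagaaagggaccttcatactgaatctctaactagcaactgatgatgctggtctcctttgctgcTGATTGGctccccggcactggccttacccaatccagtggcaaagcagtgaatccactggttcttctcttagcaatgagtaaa
RT1-Ba, chr20:4576897-4577056, plus strand: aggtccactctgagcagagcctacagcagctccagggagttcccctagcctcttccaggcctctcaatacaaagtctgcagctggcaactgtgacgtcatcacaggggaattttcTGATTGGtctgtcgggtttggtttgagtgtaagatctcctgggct
RT1-Bb, chr20:4604119-4604278, minus strand: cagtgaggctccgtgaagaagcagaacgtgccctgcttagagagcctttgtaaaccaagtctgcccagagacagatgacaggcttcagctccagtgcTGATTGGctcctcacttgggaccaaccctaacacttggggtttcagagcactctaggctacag

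The Y box letters were found in 4 of the 10 member promoters, the 4 class II chain genes, and in 6.42% of all 33469 promoters searched. The search took the 250 bases before the start on both strands, and the motifs did not overlap in these promoters. The X box letters were found in RT1-Da and Cd74 and in 3.64% of all promoters. Only exact matches were counted, so a promoter without one may still hold a variant of the X box. The interferon-stimulated response element, searched as GAAA, any 2 bases and GAAA again, was found in B2m, Tap1 and Tap2 and in 3.41% of all promoters. The gamma-activated site, searched as TTCNNNGAA, was found in Psmb8 alone and in 7.67% of all promoters. The Tap1 and Psmb9 genes point away from each other, with 456 bases between their starts. The promoters with the interferon element are shown with its letters in capitals, on the opposite strand in Tap1.
B2m, chr3:129549170-129549329, plus strand: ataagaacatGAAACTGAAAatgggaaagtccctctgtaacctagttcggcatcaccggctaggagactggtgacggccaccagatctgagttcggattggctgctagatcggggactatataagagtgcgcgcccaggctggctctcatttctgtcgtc
Tap1, chr20:4668544-4668703, minus strand: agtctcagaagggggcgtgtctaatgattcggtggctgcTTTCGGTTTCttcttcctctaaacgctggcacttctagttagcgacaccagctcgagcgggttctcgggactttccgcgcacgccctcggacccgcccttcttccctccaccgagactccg
Tap2, chr20:4652297-4652456, minus strand: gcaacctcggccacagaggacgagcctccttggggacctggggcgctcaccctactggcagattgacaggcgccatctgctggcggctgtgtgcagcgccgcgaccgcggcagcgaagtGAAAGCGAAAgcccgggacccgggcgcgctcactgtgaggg

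One array stood apart from its label. The arrays had between 23788 and 26176 probes well above background, but the array labelled sham 2 carried high levels of choroid plexus genes and low levels of hippocampal neuron genes. The mean log2 value of 10 choroid plexus markers was 4.61 there, with some of them saturated, and between -4.87 and -3.08 on the other 5 arrays. The mean of 5 hippocampal glutamatergic neuron markers was -7.14 there and between -0.40 and 0.04 on the others. Differences between the groups are therefore given with and without the array labelled sham 2, where a probe was tested in both. In tissue RNA, fewer cells of a type and less RNA per cell cannot be told apart.

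No antigen presentation gene was called between orchidectomized and sham rats, whichever arrays entered the comparison. Over all 6 arrays limma called 0 of the 9 member genes that passed the brightness filter at a Benjamini-Hochberg adjusted p under 0.05, and 0.0% of the 24631 probes tested. An unadjusted p under 0.05 was reached by 0 of these 9 genes and by 0.731% of all tested probes. The groups overlapped at every tested member probe, while orchidectomized values all lay lower at 4.74% of all tested probes and all higher at 3.26%. The adjusted p of the 9 genes, by brightest probe, ran from 0.775 to 0.827.

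The sign of the difference was set by the array labelled sham 2. Over 6 arrays all 9 genes had lower means in the orchidectomized group, where 48.4% of all tested probes had a difference above 0. Their median difference was -0.77 against -0.016 for all tested probes. With that array left out all 9 had higher means, with a median of 0.24 against -0.024 for all tested probes. In that comparison of 3 arrays with 2, limma called 0 of the 9 genes and 0.0% of 25208 probes, and an unadjusted p under 0.05 was reached by 0 of the 9 genes and by 2.71% of all tested probes. A difference above 0 was found for 44.9% of all tested probes, and the members, measured on the same 5 arrays, are not independent of each other. The adjusted p of the 9 genes then ran from 0.988 to 0.991.

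**Figure D1:**
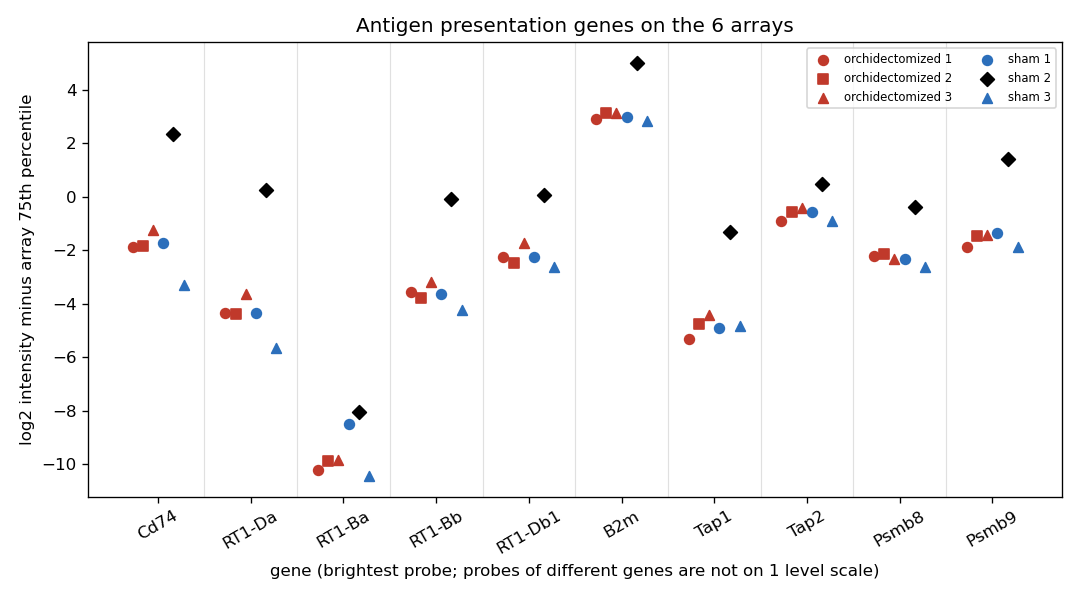
The log2 intensity relative to the array's 75th percentile is shown for the brightest probe of each of the 10 genes, 1 point per array. The array labelled sham 2 (black) lies above the other 5 arrays for every gene, RT1-Ba stayed near background on all arrays, and sham 3 lies lowest for Cd74 at -3.31 and for RT1-Da at -5.66.

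Cd74 encodes the invariant chain, which fills the groove of new class II molecules and guides them to the endosome. Its log2 values were -1.90, -1.86 and -1.24 on orchidectomized 1 to 3, and -1.72, 2.34 and -3.31 on sham 1 to 3. The sham arrays held both the highest and the lowest value, and the orchidectomized arrays fell between them. The 6-array difference of -0.77 had standard error 1.44 (adjusted p from limma 0.827). Without the array labelled sham 2 the difference was 0.85, with standard error 0.49 and a 95% interval from -0.36 to 2.05 (limma adjusted p 0.988).

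RT1-Da encodes the alpha chain of the RT1-D class II molecule and had the same arrays at its extremes. Its values were -4.37, -4.40 and -3.65 on orchidectomized 1 to 3 and -4.34, 0.26 and -5.66 on sham 1 to 3. Orchidectomized 1 and 2 and sham 1 lay within 0.053 log2 units, before rounding, of each other, orchidectomized 3 lay above them and sham 3 below. It differed by -0.89 in the 6-array fit and by 0.86 in the 5-array fit that lacks the array labelled sham 2, with standard errors of 1.54 and 0.44 (limma adjusted p 0.814 and 0.988).

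RT1-Db1 encodes the beta chain that pairs with it, and both of its probes had these extremes too. The brighter probe had -2.25, -2.49 and -1.74 on orchidectomized 1 to 3 and -2.27, 0.05 and -2.64 on sham 1 to 3. The second probe had -4.24, -4.41 and -3.11 and then -4.08, -0.98 and -4.51. On both probes the array labelled sham 2 was highest, orchidectomized 3 next and sham 3 lowest. The 6-array differences of the brighter and the second probe were -0.54 and -0.73, with standard errors of 0.75 and 1.01 (limma adjusted p 0.787 and 0.786). Without the array labelled sham 2 they were 0.30 and 0.38, with standard errors of 0.26 and 0.42 (limma adjusted p 0.988 for both).

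RT1-Bb, the beta chain gene of the RT1-B molecule, had a pair of probes that did not agree. The brighter probe, A_64_P043911, had -3.58, -3.79 and -3.19 on orchidectomized 1 to 3 and -3.65, -0.08 and -4.25 on sham 1 to 3, with the same highest, second and lowest arrays as RT1-Da. The second probe, A_44_P552452, had -8.43, -3.73 and -3.76 and then -3.69, -9.60 and -5.57. It was well above background on 4 arrays and not on orchidectomized 1 or the array labelled sham 2, the array on which the first probe was brightest. Over all arrays the first probe differed by -0.86 with standard error 1.12 (limma adjusted p 0.778). With the array labelled sham 2 left out, it differed by 0.43 with a standard error of 0.26 and the second by -0.68 with standard error 1.55 (limma adjusted p 0.988 for both). The mean of both probes differed by -0.12 in that comparison, so the sign for RT1-Bb depends on the probe. The second probe was not tested over 6 arrays because neither group had it well above background on all of its arrays.

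RT1-Ba, the alpha chain gene of the same molecule, was not well above background on any of the 6 arrays, with measured values between -10.44 and -8.04. It was not tested, and 4 of the 5 class II members therefore carry the class II results.

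**Figure D2:**
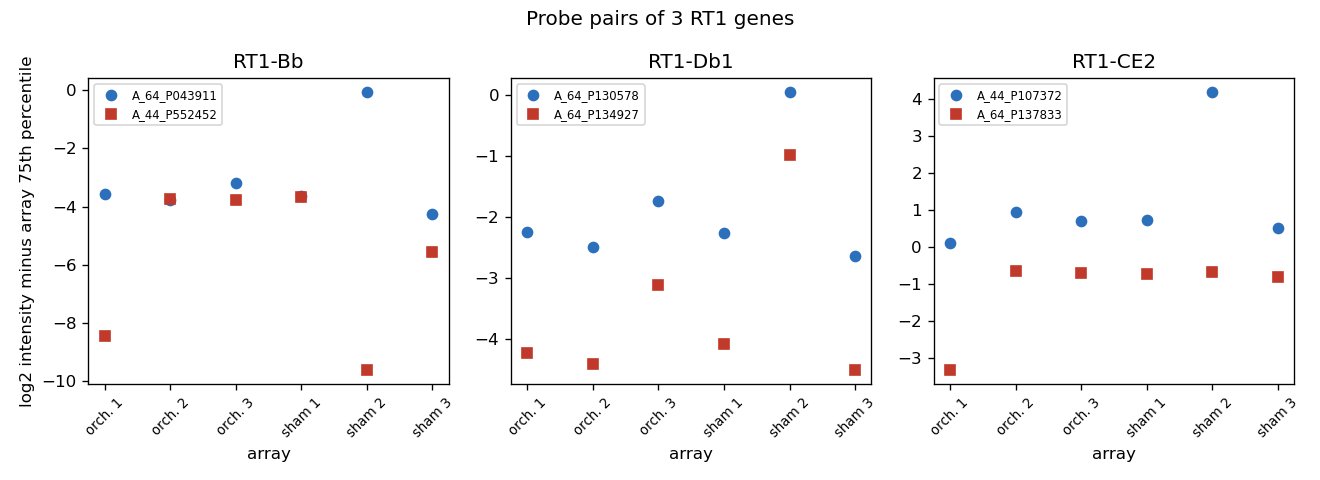
The log2 intensity relative to the array's 75th percentile is shown for both probes of RT1-Bb, RT1-Db1 and the class I heavy chain gene RT1-CE2 on each of the 6 arrays. The RT1-Db1 probes share their highest, second and lowest arrays, while the second RT1-Bb probe is dim on orchidectomized 1 (-8.43) and the array labelled sham 2 (-9.60), and the second RT1-CE2 probe is low on orchidectomized 1 (-3.33).

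The size of the Cd74 and RT1-Da differences without the array labelled sham 2 depended on sham 3. Sham 3 lay below orchidectomized 1 to 3 and sham 1 for 7 of the 9 genes with signal. This held for 24.4% of all 27363 probes above background on any array. Cd74 was 2.86-fold and RT1-Da 2.47-fold lower on sham 3 than the median of those 4 arrays. By brightest probe these were the 2 member genes lower by over 1 log2 unit, where 1.99% of all probes were. The second RT1-Bb probe was 3.54-fold lower there, with values from -8.43 to -3.69 on those 4 arrays. With sham 3 left out as well, the differences were 0.059 for Cd74 and 0.20 for RT1-Da, each against sham 1 alone. With sham 1 left out instead they were 1.64 and 1.52, against sham 3 alone. Orchidectomized 3 and sham 1 shared a slide, and there Cd74 and RT1-Da were 0.48 and 0.70 higher in the orchidectomized rat. The first day of scanning covered sham 1 and the 3 orchidectomized arrays, and the within-day differences were the same 0.059 and 0.20.

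Other genes were low on sham 3 as well. All 10 choroid plexus markers lay below the median of the 4 arrays there, 6 of them by over 1 log2 unit, with a list mean of -4.87 against -4.26 to -3.08. Of 12 microglial markers 11 lay below it, by a median of 0.16, and the list mean of 0.10 compares with 0.11 to 0.37. In both lists orchidectomized 3 had the lowest mean of the 4 arrays. That array was the highest outside the array labelled sham 2 for 7 of the 9 member genes. Among interferon-stimulated genes Bst2, which encodes tetherin, had -3.43 against -2.30 to -1.42, and Isg15, a ubiquitin-like modifier, had -3.61 against -3.00 to -2.05. Both were named after their values were seen, and the other 10 genes of that list differed by under 1 log2 unit from the median of the 4 arrays. The part of these markers in the Cd74 and RT1-Da values was not tested.

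Orchidectomized 3 was the highest of the 5 arrays outside the array labelled sham 2 for 7 of the 9 genes, and this held for 32.9% of all probes. It lay above the mean of orchidectomized 1 and 2 by 0.64 for Cd74, 0.74 for RT1-Da, 0.63 for the brighter RT1-Db1 probe and 0.11 for B2m. With this array and the array labelled sham 2 left out, the Cd74 difference was 0.64, the RT1-Da difference 0.62 and the RT1-Db1 difference 0.088.

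B2m encodes beta-2-microglobulin, the light chain of every classical class I molecule, and had the smallest range among the members over the 5 arrays outside the array labelled sham 2. Its values were 2.90, 3.11 and 3.11 on orchidectomized 1 to 3 and 2.96, 4.99 and 2.82 on sham 1 to 3. Those 5 arrays spanned 0.29 log2 units, against 2.07 for Cd74. The probe was saturated on the array labelled sham 2, so the value there is a lower bound. With this bound among the sham values the difference was -0.55 with standard error 0.62 (limma adjusted p 0.775). Without that array B2m differed by 0.15 with a standard error of 0.14 and a 95% interval from -0.20 to 0.49 (limma adjusted p 0.988).

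Tap1 and Tap2 encode the subunits of the peptide transporter. Tap1 had -5.31, -4.75 and -4.43 on orchidectomized 1 to 3 and -4.92, -1.34 and -4.84 on sham 1 to 3. Tap2 had -0.92, -0.58 and -0.43 and then -0.59, 0.48 and -0.90. For both, the groups overlapped, and sham 3 was not the lowest array as it was for the class II genes, since orchidectomized 1 lay lower. In the 6-array fit Tap1 differed by -1.13 and Tap2 by -0.31, with standard errors of 1.03 and 0.40 (limma adjusted p 0.775 and 0.780). Without the array labelled sham 2 the differences were 0.051 for Tap1 and 0.10 for Tap2, with 95% intervals from -0.61 to 0.71 and from -0.39 to 0.59 (limma adjusted p 0.991 and 0.988).

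Psmb8 and Psmb9 encode catalytic subunits that replace their constitutive counterparts in the immunoproteasome. Psmb8 had -2.23, -2.14 and -2.32 on orchidectomized 1 to 3 and -2.33, -0.38 and -2.62 on sham 1 to 3. When the array labelled sham 2 was left out, its orchidectomized values all lay above the sham values, the closest pair being -2.32 and -2.33. This was the case at 1 of 11 member probes and at 6.24% of all tested probes. Psmb8 differed by -0.45 over all 6 arrays with standard error 0.61 (adjusted p from limma 0.783). The 5-array difference of 0.24 had standard error 0.15 (adjusted p from limma 0.988).

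Psmb9 had -1.88, -1.46 and -1.44 on orchidectomized 1 to 3 and -1.37, 1.40 and -1.90 on sham 1 to 3. All 6 arrays gave a difference of -0.97 with standard error 0.89 (adjusted p from limma 0.775). The groups overlapped without the array labelled sham 2 and differed by 0.040 with a 95% interval from -0.53 to 0.61 (limma adjusted p 0.991). It shares its upstream stretch with Tap1. Both had their largest value on the array labelled sham 2, as all 9 member genes with signal did.

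**Figure D3:**
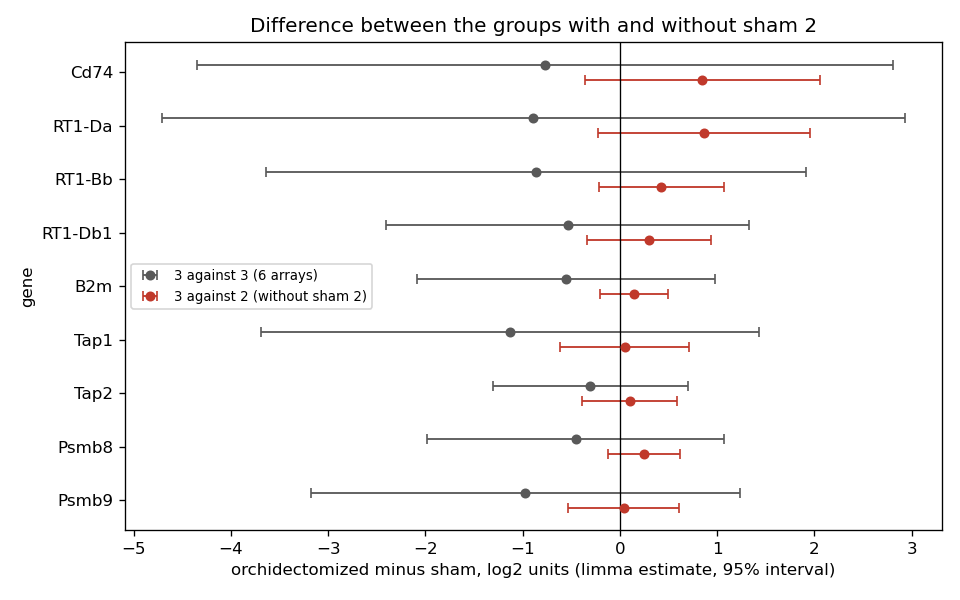
The orchidectomized minus sham difference in log2 units is shown for 9 genes with its 95% interval from limma, for all arrays (grey) and with the array labelled sham 2 left out (red). All 9 grey points lie below 0, all 9 red points above it, and every interval spans 0.

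On the array labelled sham 2 itself, all 9 member genes with signal lay above each of the other 5 arrays and by over 1 log2 unit above their median. Of all probes above background on any array, 38.3% lay above the other 5 and 19.4% by over 1 log2 unit above their median. The median excess of the members was 2.87, against 0.004 for all those probes. By brightest probe, RT1-Da lay 24.8-fold, Cd74 18.3-fold and RT1-Bb 11.8-fold over the median of the other 5 arrays. Tap1 lay 11.3-fold, Psmb9 7.29-fold, RT1-Db1 4.99-fold, Psmb8 3.84-fold and Tap2 2.10-fold over it. B2m was at least 4.10-fold higher, and its place in this order is unknown because its probe was saturated. The second RT1-Db1 probe lay 9.57-fold over the median, above Psmb9, while the second RT1-Bb probe was not well above background on that array, so 10 of 11 member probes were highest there. These are values of 1 array and have no replicate check.

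Markers of other cells moved with these genes on that array. In the choroid plexus list 9 of 10 genes lay over 1 log2 unit above the median of the other 5 arrays, in the ependymal list 2 of 3 and in the list for meninges and fibroblasts 5 of 7. Microglial markers went the other way, with 7 of 12 lower by over 1 log2 unit and a list mean of -1.11 against 0.10 to 0.37. The purinergic receptor gene P2ry12 had -2.21 there against 0.13 to 0.82.

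Markers of antigen presenting cells were mixed. Of 4 dendritic cell markers with signal 2 lay over 1 log2 unit above the median of the other arrays, and Ccr7 was lower with -5.83 against -5.50 to -4.95. The dendritic cell receptor gene Clec9a was well above background on the array labelled sham 2 alone, with -5.29 against -9.86 to -8.89, and Xcr1 reached that level on 0 arrays. Of 6 macrophage markers 2 lay over 1 log2 unit above the median and 1 as far below it. The monocyte and macrophage gene Cd14 had -1.06 there against -5.03 to -4.11. The scavenger receptor gene Cd163, well above background on 5 of the 6 arrays, had -8.93 there against -6.48 to -5.89. All 3 B cell markers with signal lay below the median of the others. Of 4 pan-leukocyte markers 3 lay below it, with a list median of -0.66. Coro1a, an actin-binding protein gene, had -0.67 against 3.24 to 3.77, while Ptprc, which encodes CD45, was higher with -3.20 against -3.86 to -3.60. The part of these cells in the high member values was not tested.

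**Figure D4:**
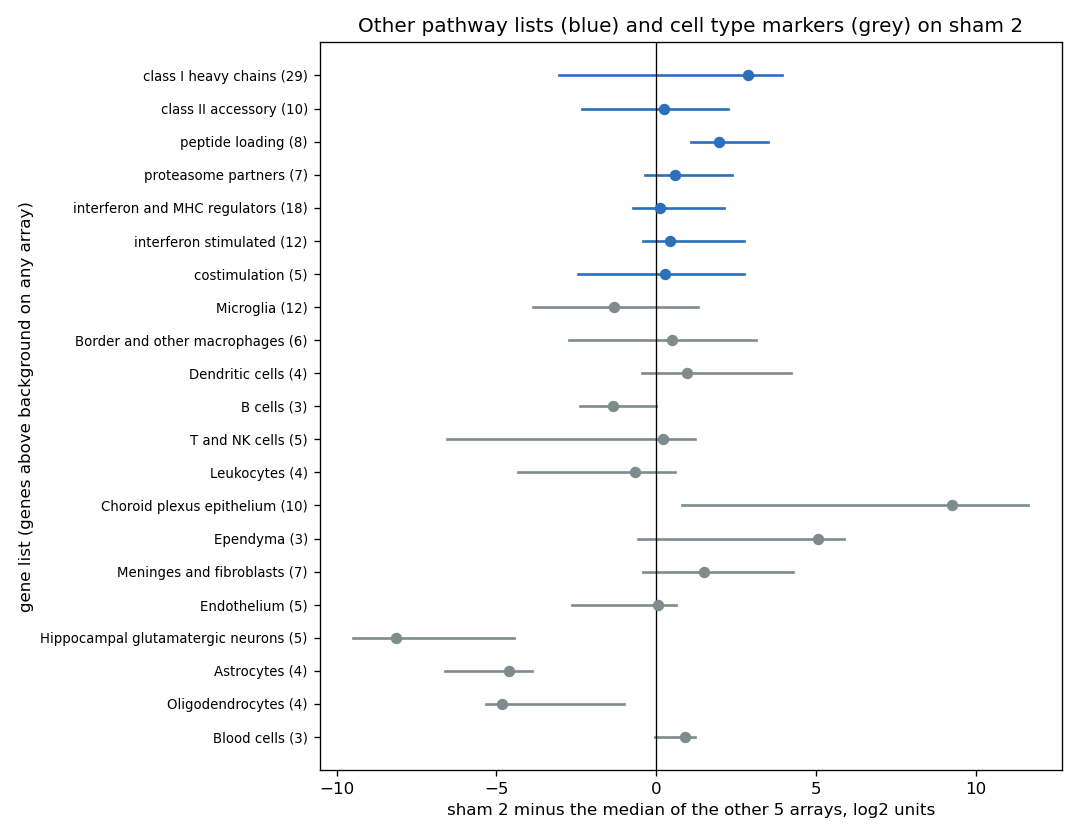
For each gene list the point gives the median and the line the lowest to highest gene of the log2 value on the array labelled sham 2 minus the median of the other 5 arrays, for pathway lists (blue) and cell type markers (grey). Class I heavy chains (2.88) and peptide loading genes (1.97) lie to the right among the pathway lists, choroid plexus markers (9.25) farthest right and hippocampal neuron markers (-8.13) farthest left.

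The remaining genes of the pathway were read from 7 lists, and limma called 0 of their 86 tested genes over 6 arrays and 0 of 88 without the array labelled sham 2. Class I heavy chain genes, the RT1-A, RT1-C, RT1-M, RT1-N, RT1-S and RT1-T genes on the array, are near copies of each other, so their probes may read several genes. Of 28 tested genes 23 had lower orchidectomized means over 6 arrays, with a median of -0.95, and without the array labelled sham 2 15 of 29 were higher, with a median of 0.005. The list lay a median of 2.88 above the other arrays on the array labelled sham 2, where 19 of 29 genes were over 1 log2 unit higher and 4 lower by as much. The classical gene RT1-A1 was saturated there at 5.16, which is thus a lower bound, against 1.93 to 2.58.

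Some class I probes stood apart on single arrays or differed from another probe of their gene, as the second RT1-Bb probe did. The second RT1-CE2 probe, A_64_P137833, had -3.33 on orchidectomized 1 and between -0.82 and -0.67 on the other 5 arrays, the array labelled sham 2 included. RT1-CE10 had -6.54 on orchidectomized 1 and between -4.31 and -3.41 on the others. A probe of RT1-M6-1, A_64_P003254, had -1.03 on orchidectomized 1, -9.32 on the array labelled sham 2 and -3.79 to -2.59 on the others, while its other probe, A_64_P003255, had 0.58, 4.02 and 0.70 to 1.11. These probes were picked out after their values were seen. By the smallest unadjusted p the list gave RT1-CE6, RT1-N3 and RT1-M1-4, with differences of -1.10, -0.50 and 0.14 over 6 arrays and -0.82, -0.35 and -1.02 without the array labelled sham 2 (limma, not called).

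The class II accessory genes did not share the pattern of the class II chains on the array labelled sham 2. Among 10 genes with signal, 4 lay over 1 log2 unit above the median of the other arrays and 3 as far below it. Ciita, the master coactivator of class II genes, had -5.61 there against -7.75 to -6.78. Ctss, which encodes cathepsin S, the protease that trims the invariant chain, had 1.26 against 2.91 to 3.36. RT1-DOb, a modulator of peptide exchange that lies among the members on chromosome 20, had -5.17 against -5.45 to -4.99, within the range of the other arrays. Leaving out the array labelled sham 2, the median difference of the list was 0.066, against 0.019 over 6 arrays. RT1-DMb, a subunit gene of the peptide exchange factor, differed by 0.31 without that array and 0.095 with it, and Ctss by 0.15 and 0.72 (limma, not called). Cd83, which encodes a protein that keeps class II on the cell surface, had -0.98 on the array labelled sham 2 against -0.13 to 0.40 and differed by 0.44 over 6 arrays and 0.088 without that array (limma, not called).

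Peptide loading genes were all higher on the array labelled sham 2, with 8 of 8 over 1 log2 unit above the median of the others. They include Tapbp (tapasin, the bridge between TAP and class I) at -0.14 against -2.94 to -2.54. In orchidectomized rats 8 of 8 had lower means over 6 arrays, with a median difference of -0.79. Without that array 4 of 8 were higher and 4 lower, with a median of -0.081. Tapbpl, which encodes the peptide editor TAPBPR, had -5.67, -6.61 and -5.99 on orchidectomized 1 to 3 and -4.66, -2.15 and -4.88 on sham 1 to 3. Its orchidectomized values all lay below the sham values in both comparisons, as they did at 4.74% of all tested probes over 6 arrays and at 2526 of 25208 tested probes in the other. It differed by -2.19 in the 6-array fit and by -1.32 in the 5-array fit, with unadjusted p values of 0.0345 and 0.00447 from limma, and neither was called after adjustment. Hspa5, the endoplasmic reticulum chaperone BiP, differed by 0.32 and Sec61a1, a translocon subunit, by -0.30 without that array, and by -0.30 and -0.87 with it (limma, not called).

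Partners of the immunoproteasome split on the array labelled sham 2. The activator genes Psme1 and Psme2 had 4.60 and 4.30 there, against 1.96 to 2.38 and 2.30 to 2.61. The third immunoproteasome subunit gene, Psmb10, had 2.28 against 2.33 to 2.85 and so did not follow Psmb8 and Psmb9. Of the constitutive counterparts, Psmb5 had 3.80 against 3.17 to 3.31, Psmb6 2.56 against 1.31 to 1.49 and Psmb7 1.99 against 2.01 to 2.38. Without that array Psmb10 differed by 0.21 and the nuclear activator gene Psme3 by -0.29, and with it by 0.28 and -0.24, while Psmb6 differed by -0.042 without it and -0.43 with it (limma, not called).

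Among regulators of the interferon response and of MHC genes, 2 of 18 lay over 1 log2 unit above the median of the others on the array labelled sham 2. They include the interferon regulatory factor gene Irf1 at 1.69 against -0.48 to -0.02. Among interferon-stimulated genes 5 of 12 were as much higher, including Irf7 at -0.07 against -2.25 to -1.79 and the antiviral membrane protein gene Ifitm3 at -1.52 against -2.94 to -2.35. Mx1 and Gbp2, classical interferon targets, had 0.14 and -1.69 there, within the ranges of -0.16 to 0.85 and -2.09 to -1.43. Between the groups, without that array, Irf7 differed by -0.33, Ifitm3 by -0.34, the receptor genes Ifngr1 and Ifnar1 by -0.34 and 0.22, and Nfya, which encodes an NF-Y subunit, by -0.11 (limma, not called). Over 6 arrays the same genes differed by -0.95, -0.66, -0.21, 0.21 and -0.25 (limma, not called).

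Costimulatory genes were near or below the detection limit in part, and 3 of 5 were tested over 6 arrays. Icam1, an adhesion molecule gene, had 0.38 on the array labelled sham 2 against -2.94 to -2.25. Cd274, which encodes PD-L1, had -7.48 there against -5.32 to -4.91, and was well above background on 5 of the 6 arrays. Without that array Icam1 differed by -0.15, Cd274 by 0.11 and the CD28 ligand gene Cd80 by -0.78 (limma, not called). Over 6 arrays Icam1 differed by -1.07 and Cd274 by 0.89, and Cd80 was not tested (limma, not called).

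The genes whose profiles lay closest to the class II members were found by root mean square distance between array-centred log2 values, among 11780 genes well above background on all arrays. The reference was the mean profile of the 4 class II members with signal. Over 6 arrays the nearest were Or8s5 at 0.204, Tec at 0.215, Ccdc68 at 0.237, Rtp4 at 0.242 and Dap at 0.250, while the members themselves lay between 0.154 and 0.578. Over the 5 arrays without the array labelled sham 2 the nearest were H1f5 at 0.0842, Nat8f1 at 0.0859, Prss35 at 0.0890, Ccl2 at 0.103 and Vps4a at 0.121. No gene was among the 5 nearest in both searches, and Prss35 had -6.84 on the array labelled sham 2 where the class II members were high.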

How the data were processed

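Per the labels' protocols, each Cy3-labelled sample came from 200 ng of total hippocampal RNA. Arrays were quantified with Agilent Feature Extraction 10.5.1.1, per the file headers, and its processed intensity has background subtracted. In the authors' deposited table of log2 values, each array differs from its log2 processed signal by a median of -0.32 to 0.72 (column medians 7.62 to 8.04). Whether 1 constant per array holds for every probe was not tested. Their scale is log2, and the origin of these offsets stays unknown.

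Control spots (1377 of 44254) and outlier spots were left out. Log2 processed signals of a probe's spots were averaged, and the array's 75th percentile was subtracted. Flags counted when at least 50% of a probe's spots had them. RefSeq accessions named 18004 of 30367 probes through the GRCr8 gene table, and the array files here hold no gene names. A probe was tested if every array of 1 group or both had it well above background. Tests were two-sided, from limma 3.58.1 (lmFit, eBayes) under R 4.3.3, with p values adjusted by Benjamini-Hochberg, and the procedure was tested on simulated data. The brightest probe stands for a gene.

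Named are all members and, per pathway list, the genes with the 2 smallest p values in each comparison, plus cell type markers; other genes were named after their values were seen. Members and lists were chosen with earlier results of these data known. There were 4 slides and 2 scan days, and slides 3 and 4 and day 2 held sham arrays alone. Normexp used median spot signals and quantile normalization. Median scaling moved the median of all probes to -0.101 over 6 arrays.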

Additional observations from a re-analysis of the deposited data

How the results depend on the processing

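Under 12 settings besides leaving out arrays, 0 member genes were called in either comparison. The negative median over 6 arrays turned under settings that give the array labelled sham 2 little or no weight. Blocking on scan day sets the orchidectomized arrays against sham 1 alone, and blocking on slide sets orchidectomized 3 against sham 1. With array weights the median was 0.049, with B2m at 0.049, Cd74 0.067, Psmb8 0.16, RT1-Bb 0.060 and RT1-Da 0.15. Psmb9 stayed negative at -0.25, Tap1 at -0.12, Tap2 at -0.12 and RT1-Db1 at -0.016. With scan day as a block the median was 0.092. B2m was at 0.079, Cd74 0.059, Psmb8 0.099, RT1-Bb 0.13, RT1-Da 0.20, RT1-Db1 0.11 and Tap1 0.092, while Psmb9 stayed at -0.23 and Tap2 at -0.053. With slide as a block the median was 0.46. B2m was at 0.15, Cd74 0.48, Psmb8 0.0086, RT1-Bb 0.46, RT1-Da 0.70, RT1-Db1 0.53, Tap1 0.49 and Tap2 0.16, while Psmb9 stayed at -0.073. Without the array labelled sham 2, Psmb9 turned to -0.052 with array weights, -0.23 with scan day and -0.073 with slide as a block, and -0.026 with replicate number as a block. Tap1 turned to -0.15 and Tap2 to -0.0093 with array weights, Tap2 to -0.053 with scan day, and RT1-Bb to -0.12 with the mean of its probes. Deviations of same-numbered arrays from their group means had correlations of 0.027, -0.023 and -0.018. The sham means include the array labelled sham 2, so this check cannot tell whether same-numbered arrays were paired. The replicate block changed no call. Over all probes, where 0 were called in the report, 6 arrays gave 13 calls with array weights and 1 with quantile normalization. Without the array labelled sham 2 the deposited values gave 18 calls, quantile normalization 2, median scaling 1 and blocking on scan day 10. Leaving out sham 1 or sham 3 as well gave 22 and 251 calls.

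Leaving out 1 array at a time gave medians from -1.61 to 0.24 over 6 arrays and from 0.092 to 0.39 without the array labelled sham 2. Over 6 arrays the ranges were -0.94 to 0.15 for B2m, -1.97 to 0.85 for Cd74, -0.88 to 0.24 for Psmb8, -1.61 to 0.040 for Psmb9, -1.66 to 0.43 for RT1-Bb, -2.10 to 0.86 for RT1-Da, -1.05 to 0.30 for RT1-Db1, -1.74 to 0.051 for Tap1 and -0.59 to 0.10 for Tap2. In each the positive end is the value without the array labelled sham 2. In the 5-array comparison Cd74 ran from 0.059 without sham 3 to 1.64 without sham 1, RT1-Da from 0.20 to 1.52, Psmb9 from -0.23 to 0.31, Tap1 from -0.15 to 0.29 and Tap2 from -0.053 to 0.26, with a lone sham array assumed to vary like the others. The number of arrays limits all of these values, and RT1-Ba was below background throughout.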
